A study of Mus musculus with 16 samples.

Results

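The genes described here are 10 genes of leukocyte recruitment at the vessel wall, namely the adhesion molecules Icam1, Icam2 and Vcam1, the selectins Sele and Selp, the chemokines Ccl2, Cxcl1 and Cxcl12, the cytokine gene Ltb and the NF-kB inhibitor gene Nfkbia. They were chosen by name, with earlier results of these data known, and the counts of all their transcripts were summed in each library. They are 10 of the 54193 genes in the files, of which 27228 had any count, and all 10 passed the filter on low counts that left 14838 genes for testing. The cells were mouse brain microvascular endothelial cells (mBMEC) isolated from adult mice of 8 to 10 weeks with the genotype Cdh5(PAC)-CreERT2/Pdcd10 fl/fl, in which the tamoxifen-inducible Cre is driven by the endothelial Cdh5 promoter. All groups carried the floxed allele and the Cre. KO cells had received 4-hydroxytamoxifen (4-OHT), which removes Pdcd10, the gene of the cerebral cavernous malformation protein CCM3. WT cells had not, so that exposure to 4-OHT and the genotype cannot be told apart. Cells were left untreated (3 WT and 3 KO libraries) or received 10 µM propranolol for 24 h (2 WT+P and 3 KO+P libraries) or 100 nM rapamycin for 24 h (2 WT+R and 3 KO+R libraries). Propranolol blocks beta-adrenergic receptors and rapamycin inhibits the kinase mTOR. Each culture came from the pooled brains of several mice and was a model of endothelium without flow or circulating leukocytes.

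Leukocytes leave the blood in steps. The selectins E-selectin (Sele) and P-selectin (Selp) on the endothelium let them roll, chemokines held at the vessel surface activate their integrins, and the immunoglobulin-like molecules ICAM-1, ICAM-2 and VCAM-1 then bind those integrins and arrest the cells. In resting brain endothelium most of these molecules are scarce, ICAM-2 being a constitutive one, and inflammatory cytokines raise several of them through NF-kB. Nfkbia encodes IκBα, which holds NF-kB in the cytoplasm and is itself a target of NF-kB, and Ltb encodes lymphotoxin beta, a membrane ligand of the TNF family.

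The 16 libraries held 18.83 to 26.2 M counts. The 14 endothelial markers, such as Cdh5 and Cldn5, summed to between 9150 and 18000 CPM (counts scaled to library size, with TMM factors) in every library, so that the labelled cell type had its defining markers. The summed microglia and macrophage markers stood at 1.92 to 26.1 CPM and the T and B cell markers at 0.773 to 14.7 CPM, with P2ry12, Cd3d and Cd8a at 0 in every library. Pdcd10 stood at 7.83 to 16.7 CPM in the KO libraries and at 27.7 to 60.8 CPM in 6 of the 7 WT libraries. In the library labelled WT replicate 1 it was 11.5 CPM, the level of the untreated KO libraries (9.72 to 11 CPM). For most members described against untreated WT cells, a fold change or an adjusted p without that library is therefore also given. Differences between same-numbered libraries and interactions are given with that library only. Libraries with the same replicate number resembled each other across genes, though WT replicate 3 only weakly, and the replicate number as a block was used as a second model.

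The promoters below are shown because NF-kB sites near the start of several of these genes are textbook elements of the pathway, and because the genes shown include members that moved with rapamycin and members that did not. RefSeq held a promoter window (250 bases before to 50 bases after the start, table of GRCm38.p6) for 7 of the 10 genes, which are Icam1, Sele, Selp, Ltb, Cxcl1, Cxcl12 and Nfkbia, and each window was placed on GRCm39 by an exact match. Both strands were searched for the kappa-B consensus and for the letters GGAAATTCC, and matches of these motifs can overlap. Capitals mark the matches, and positions count from the start of transcription.
Icam1 (GRCm39, chr9:20926986-20927285, plus strand): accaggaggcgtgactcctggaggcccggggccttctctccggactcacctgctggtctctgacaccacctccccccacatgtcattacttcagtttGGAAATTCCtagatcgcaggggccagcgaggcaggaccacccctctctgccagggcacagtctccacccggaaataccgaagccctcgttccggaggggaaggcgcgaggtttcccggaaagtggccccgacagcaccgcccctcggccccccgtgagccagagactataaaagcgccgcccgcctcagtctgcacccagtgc
Cxcl1 (chr5:91038854-91039153, plus strand): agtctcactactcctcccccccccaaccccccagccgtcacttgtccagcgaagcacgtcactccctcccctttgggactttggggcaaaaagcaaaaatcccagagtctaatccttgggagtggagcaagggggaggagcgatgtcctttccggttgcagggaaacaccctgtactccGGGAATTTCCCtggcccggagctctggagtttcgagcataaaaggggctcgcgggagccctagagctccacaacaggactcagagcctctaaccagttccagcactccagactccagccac
Cxcl12 (chr6:117145246-117145545, plus strand): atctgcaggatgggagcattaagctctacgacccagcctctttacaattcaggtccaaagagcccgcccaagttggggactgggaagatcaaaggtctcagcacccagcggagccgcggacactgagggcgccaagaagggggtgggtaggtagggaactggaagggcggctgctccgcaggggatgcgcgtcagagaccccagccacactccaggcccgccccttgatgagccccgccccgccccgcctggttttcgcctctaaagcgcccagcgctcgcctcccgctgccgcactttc
Nfkbia (chr12:55539383-55539682, minus strand): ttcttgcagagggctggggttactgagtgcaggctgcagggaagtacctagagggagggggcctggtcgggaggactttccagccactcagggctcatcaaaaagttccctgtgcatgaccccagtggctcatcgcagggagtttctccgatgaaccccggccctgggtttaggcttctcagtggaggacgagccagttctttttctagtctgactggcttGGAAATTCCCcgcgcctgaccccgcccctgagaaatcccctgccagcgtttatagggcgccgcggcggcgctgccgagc
Icam1 held GGAAATTCC from position -153. Cxcl1 held the kappa-B consensus on both strands, from -71 and -70, overlapping each other and GGAAATTCC on the minus strand. In Nfkbia the consensus and GGAAATTCC overlapped from position -29, and in Ltb, whose window is not printed, the consensus lay on the minus strand from -87. The windows of Cxcl12, Sele and Selp held neither motif. Thus 3 of the 7 windows held the consensus, against 4.51% of 32851 promoter windows, and 3 of 7 held GGAAATTCC, against 0.317%. In Cxcl1 and Nfkbia both motifs shared letters, so these counts are not separate. Such sites were known beforehand in several of these genes, so the shares are a description and not a test. A match describes letters in a window and not a site in use.

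Compared per transcript length, the genes spanned a wide range of TPM (counts scaled for transcript length and library size). Ccl2, which attracts monocytes, had the highest median over the 16 libraries at 596 TPM (348 to 2580 TPM). Icam2 followed with a median of 304 TPM, Cxcl12, a homeostatic chemokine of endothelium and stroma, with 271 TPM, Nfkbia with 170 TPM, Vcam1 with 131 TPM and Icam1 with 65.2 TPM. Cxcl1, a neutrophil chemokine, had a median of 26.6 TPM. Selp (1.82 TPM), Ltb (1.56 TPM) and Sele (0.478 TPM) had the lowest levels, with 18 to 158 counts per library for Selp, 3 to 224 for Ltb and 3 to 54 for Sele. Levels in single libraries are mostly given below in CPM, which compare a gene between libraries and not genes with each other. Where counts are given, they are not scaled to library size.

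**Figure D1:**
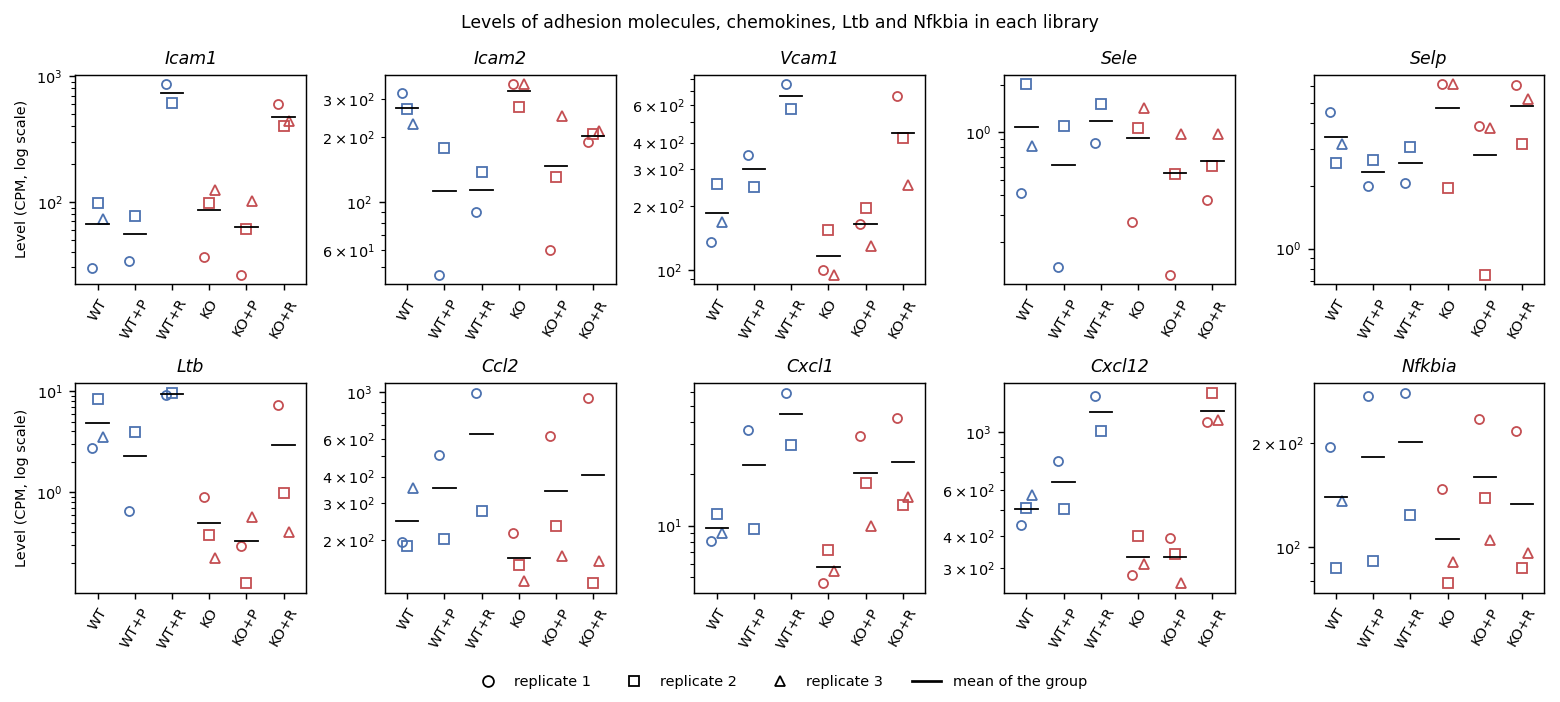
Level of each of the 10 genes in each library (CPM, log axis that differs between panels), by group, with WT cells in blue and KO cells in red. The marker shape gives the replicate number and the line the mean of the group. The WT+R and KO+R libraries of Icam1 (398 to 866 CPM) lay above all others (at most 123 CPM), and the libraries numbered 1 held the highest Nfkbia value in every group.

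Rapamycin went with higher levels of Icam1, Vcam1 and Cxcl12. Relative to untreated cells, 2 of the 10 genes rose in KO cells (Vcam1 and Cxcl12) and 3 rose in WT cells (Icam1, Vcam1 and Cxcl12), at an adjusted p under 0.05 and a fold change above 1.5 in edgeR's quasi-likelihood test. Over all tested genes, 0.708% were called higher and 1.51% in either direction in KO+R vs KO, and 0.647% higher and 1.4% in either direction in WT+R vs WT. None of the 10 genes was called lower. The members' median log2 fold change was 1.58 in KO and 1.09 in WT cells, against -0.02 and -0.01 over all tested genes. As the members were chosen with earlier results of these data known, their standing against all tested genes is no independent evidence. In bulk RNA a change in the share of cells and a change of RNA per cell cannot be told apart.

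Icam1 (chromosome 9, 20926672 to 20940113, plus strand) encodes an endothelial ligand of the integrins of leukocytes. Its level was 36.2, 98.2 and 123 CPM in the KO libraries (replicates 1, 2 and 3) and 597, 398 and 436 CPM in the KO+R libraries. In the WT libraries it was 29.8, 97.6 and 72.7 CPM, and in the WT+R libraries 866 and 609 CPM. Every rapamycin library thus lay above every library without rapamycin, and the groups did not overlap in either genotype. The difference was 5.55-fold in KO cells (log2 fold change 2.47, standard error 0.577), whose adjusted p was 0.0531 and so just missed the threshold. With the replicate block the log2 fold change was 2.73 and Icam1 was called (adjusted p = 0.008), as with DESeq2 (adjusted p = 0.000214). In WT cells it rose 11.1-fold (log2 fold change 3.47, standard error 0.629, adjusted p = 0.0183). That call was lost without WT replicate 1 (log2 fold change 3.11, adjusted p = 0.0643), without WT replicate 3 (adjusted p = 0.0688) and without either WT+R library (adjusted p = 0.165 without replicate 1 and 0.0552 without replicate 2). Of its exonic bases, 10.284% lie opposite Gm47079, which held at most 17 counts in any library.

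Vcam1 (chromosome 3, 115903598 to 115923355, minus strand) encodes an endothelial ligand of integrins on lymphocytes and monocytes. It stood at 100, 154 and 94.9 CPM in KO and at 663, 420 and 253 CPM in KO+R cells. The WT libraries held 136, 254 and 169 CPM and the WT+R libraries 758 and 578 CPM. The groups did not overlap in either genotype. Vcam1 rose 3.83-fold in KO cells (log2 fold change 1.94, standard error 0.347, adjusted p = 0.0169) and 3.59-fold in WT cells (log2 fold change 1.84, standard error 0.371, adjusted p = 0.0282). The call in KO cells was lost without KO replicate 1 (adjusted p = 0.0916), KO replicate 3 (0.0812) or KO+R replicate 1 (log2 fold change 1.56, adjusted p = 0.0601). This call was also lost when only the KO and KO+R libraries were fitted. In WT cells it was lost without WT replicate 1 (log2 fold change 1.66, adjusted p = 0.101), WT replicate 3 (0.1), WT+R replicate 1 (0.256) or WT+R replicate 2 (0.0763).

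Cxcl12 (chromosome 6, 117144945 to 117158328, plus strand) encodes the ligand of the receptors CXCR4 and ACKR3. Its level was 282, 398 and 313 CPM in KO and 1090, 1410 and 1110 CPM in KO+R cells. In WT cells it was 438, 511 and 572 CPM, and in WT+R cells 1370 and 1010 CPM. It rose 3.63-fold in KO cells (log2 fold change 1.86, standard error 0.221, adjusted p = 0.00259), and this call held in all 24 alternative settings. The rise was 2.35-fold in WT cells (log2 fold change 1.23, standard error 0.236, adjusted p = 0.0244). It was no longer called without WT replicate 1 (log2 fold change 1.13, adjusted p = 0.0871), WT replicate 2 (0.063), WT replicate 3 (0.0542), WT+R replicate 1 (log2 fold change 0.99, adjusted p = 0.29) or WT+R replicate 2 (0.0552).

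Cxcl1 (chromosome 5, 91039094 to 91040974, plus strand) encodes a ligand of the neutrophil receptor CXCR2. Levels were 4.61, 7.25 and 5.46 CPM in KO, 42.6, 13.2 and 14.7 CPM in KO+R, 8.19, 11.7 and 9.06 CPM in WT and 59.4 and 29.6 CPM in WT+R cells. The groups did not overlap in either genotype, as for Icam1, Vcam1 and Cxcl12, and over all tested genes 24.1% in KO+R vs KO and 28.6% in WT+R vs WT did not overlap in either direction. The fold changes were 4.06 in KO cells (log2 fold change 2.02, standard error 0.589, adjusted p = 0.135) and 4.6 in WT cells (log2 fold change 2.2, standard error 0.626, adjusted p = 0.109), neither of which was called. Without WT replicate 1 the adjusted p in WT cells was 0.271. With the replicate block Cxcl1 was called in KO cells (log2 fold change 1.78, adjusted p = 0.0435) and not in WT cells (adjusted p = 0.0591). DESeq2 called it in KO cells (adjusted p = 0.00942, and 0.00103 with the block) and in WT cells (0.0119, and 0.00424 with the block). The block brought the called members to 4 in KO cells, against 4.98% of all tested genes, and left 3 in WT cells, against 4.56%.

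**Figure D2:**
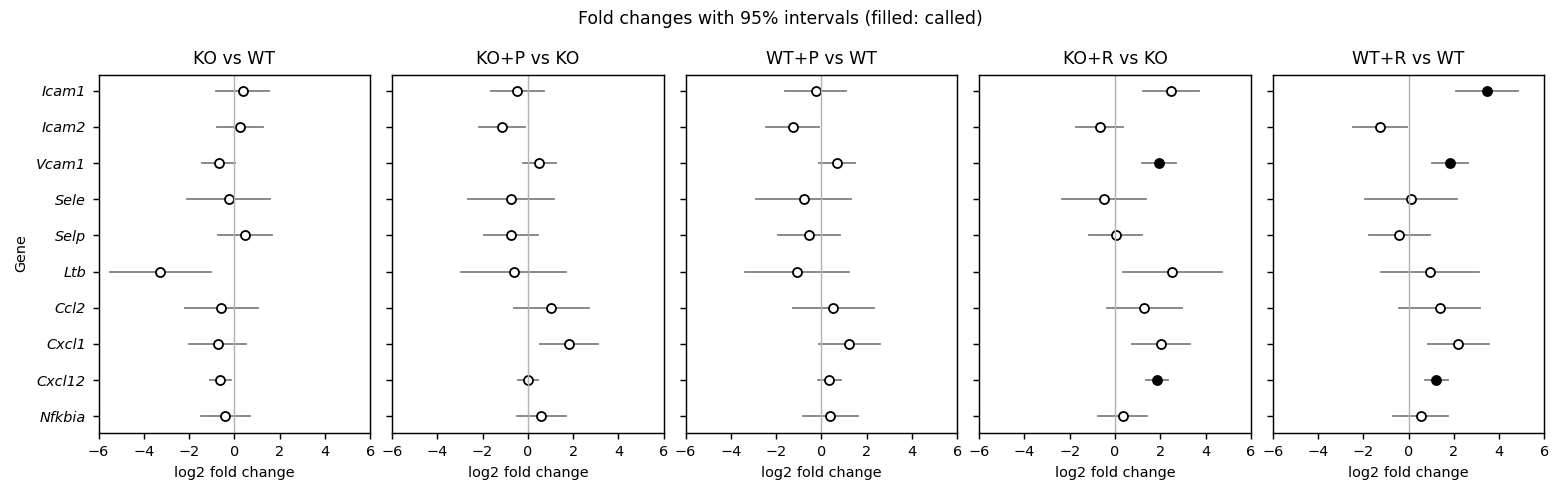
Log2 fold change of each gene in 5 comparisons from edgeR's quasi-likelihood test, with 95% intervals as grey lines. Filled points were called at an adjusted p under 0.05 and a fold change above 1.5, and these are Vcam1 and Cxcl12 in KO+R vs KO and Icam1, Vcam1 and Cxcl12 in WT+R vs WT.

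Icam1, Vcam1, Cxcl1 and Cxcl12 differed most with rapamycin in the libraries numbered 1. Set against the untreated library of the same number, the Icam1 difference was 4.04, 2.02 and 1.82 (log2 CPM) in KO replicates 1, 2 and 3, and 4.86 and 2.64 in WT replicates 1 and 2. For Vcam1 it was 2.73, 1.45 and 1.41 in KO and 2.48 and 1.19 in WT cells. For Cxcl12 it was 1.94, 1.82 and 1.83 in KO cells, nearly the same in each, and 1.65 and 0.981 in WT cells. The difference for Cxcl1 was 3.19, 0.862 and 1.41 in KO and 2.85 and 1.33 in WT cells. All 5 same-numbered differences were above 0 for these 4 genes and for Ltb and Nfkbia, and all 5 were below 0 for Icam2. Those of Nfkbia in KO cells were 0.558, 0.149 and 0.0849. The share of all tested genes with 5 differences of the same sign was not counted, so these directions are a description only. The first WT pair uses the library labelled WT replicate 1, whose Pdcd10 stood at the level of KO cells. With only the libraries numbered 2 and 3, a setting added after the values were seen, Cxcl12 alone was called in KO cells (log2 fold change 1.86, adjusted p = 0.0434) and no member in WT cells. Icam1 then had a log2 fold change of 1.94 in KO (adjusted p = 0.0521) and 2.87 in WT cells (adjusted p = 0.055), and Vcam1 of 1.47 (adjusted p = 0.176) and 1.48 (adjusted p = 0.282).

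**Figure D3:**
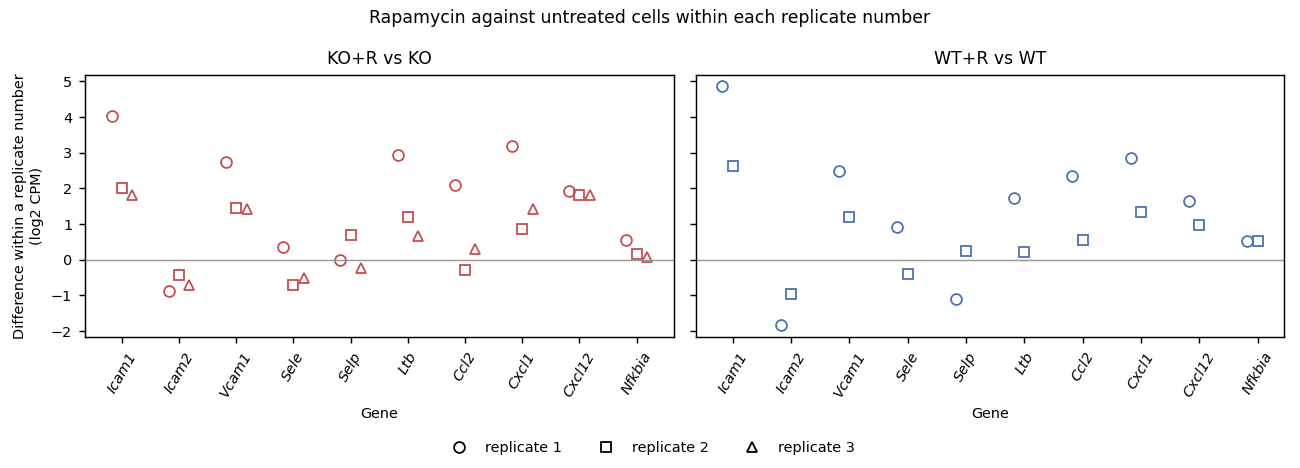
Difference between the rapamycin library and the untreated library of the same replicate number (log2 CPM) for each gene, in KO cells (left, 3 pairs) and WT cells (right, 2 pairs). Icam1, Vcam1, Cxcl1 and Cxcl12 lay above 0 in every pair, with the widest difference in replicate 1, and Icam2 lay below 0 in every pair.

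The remaining genes did not pass the test with rapamycin. Icam2 (chromosome 11, 106263312 to 106278943, minus strand), the adhesion molecule that resting endothelium carries, was 350, 274 and 351 CPM in KO and 190, 205 and 213 CPM in KO+R cells, and 319, 268 and 230 CPM in WT and 89.8 and 138 CPM in WT+R cells. All rapamycin values lay below those of untreated cells of the same genotype, but the log2 fold changes of -0.68 in KO (adjusted p = 0.636) and -1.26 in WT cells (adjusted p = 0.354, and 0.531 without WT replicate 1) were not called. The summed endothelial markers were 12300 to 13300 CPM in WT+R cells, wholly below the 14600 to 18000 CPM of WT cells, and 15400 to 17700 CPM in KO+R cells, against 15800 to 18000 CPM in KO cells. Their part in the Icam2 values was not tested. Ltb was 0.891, 0.38 and 0.222 CPM in KO and 7.36, 0.984 and 0.401 CPM in KO+R cells. Its log2 fold change of 2.52 (adjusted p = 0.307) was 0.49 without KO+R replicate 1. In WT+R cells Ltb was 9.13 and 9.62 CPM, above the 3 WT libraries (log2 fold change 0.95, adjusted p = 0.793, and 0.67 with an adjusted p of 0.891 without WT replicate 1). Of its exonic bases 22.853% lie opposite Gm65873, and 24.485% of those of Icam2 opposite Prr29, which held at most 5 counts in any library. Ccl2 (chromosome 11, 81926397 to 81928279, plus strand) was 939, 125 and 160 CPM in KO+R and 217, 152 and 128 CPM in KO cells, so that KO+R replicate 1 alone stood apart. In WT+R cells it was 996 and 276 CPM, beside 196, 188 and 354 CPM in WT cells. The Ccl2 log2 fold changes were 1.3 in KO (adjusted p = 0.542) and 1.37 in WT cells (adjusted p = 0.566, and 0.713 without WT replicate 1). The value in KO cells turned to -0.2 without KO+R replicate 1, and that in WT cells came to 0.16 without WT+R replicate 1. Nfkbia (chromosome 12, 55535332 to 55539432, minus strand) was 147, 78.5 and 90.6 CPM in KO and 216, 87 and 96 CPM in KO+R cells, with log2 fold changes of 0.34 in KO and 0.54 in WT cells (adjusted p = 0.867 and 0.79, and 0.689 in WT cells without WT replicate 1). These turned to -0.18 without KO+R replicate 1 and to -0.16 without WT+R replicate 1. For Nfkbia, 7.279% of its exonic bases lie opposite Gm36634, which held at most 12 counts in any library. The selectins, which lie close to each other on chromosome 1 (Sele from 163867401 to 163886055 and Selp from 163942833 to 163977595), had 0.125 to 2.02 and 0.75 to 6.13 CPM over all libraries, and their groups overlapped with either drug in both genotypes. Neither was called with rapamycin (adjusted p from 0.871 to 0.995), and the 95% intervals of the log2 fold changes in KO cells ran from -2.33 to 1.39 for Sele and from -1.16 to 1.2 for Selp.

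Rapamycin was not shown to act differently in the genotypes. The interaction on the log2 scale was -0.99 for Icam1 (95% interval -2.76 to 0.77), 0.09 for Vcam1 (-0.99 to 1.18) and 0.63 for Cxcl12 (-0.07 to 1.33), and each adjusted p was 1. Of all tested genes 0% were called for this interaction in edgeR (113 had an unadjusted p under 0.05), and DESeq2 called 1 gene, which was not a member. Between KO+R and WT+R cells none of the 10 genes was called, where edgeR called 0% of all tested genes (849 had an unadjusted p under 0.05). Of the 10 genes, 2 were higher and 2 lower without overlap of the groups, and 19.2% of all tested genes did not overlap. Icam1 (597, 398 and 436 CPM in KO+R against 866 and 609 CPM in WT+R cells) and Ltb were the lower genes, and Icam2 and Selp the higher ones. With the replicate block, Nfkbia had a log2 fold change of -0.49 (adjusted p = 0.417) and Sele of -1.28 (adjusted p = 0.457). Without the block that of Nfkbia was -0.6 and turned to 0.1 without WT+R replicate 1.

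Propranolol brought no called change in these genes in edgeR. None was called in KO+P vs KO or WT+P vs WT, where 0.00674% of all tested genes, or 1 gene, were called in each comparison (1870 and 1464 genes had an unadjusted p under 0.05, against 2 and 1 members). DESeq2 called 164 and 118 genes, none of them a member, and DESeq2 with the replicate block called Cxcl1 and Nfkbia in KO+P vs KO, among 934 genes. Icam1 was 26.3, 60.4 and 101 CPM in KO+P and 34 and 77.7 CPM in WT+P cells, within or just below the range of untreated cells. Cxcl12 was 393, 340 and 263 CPM in KO+P cells, against 282, 398 and 313 CPM in KO cells, and the 95% interval of its log2 fold change ran from -0.46 to 0.47. Vcam1 was 165, 197 and 130 CPM in KO+P and 351 and 248 CPM in WT+P cells, with log2 fold changes of 0.49 (95% interval -0.23 to 1.22) and 0.69 (-0.12 to 1.49), the latter 0.5 without WT replicate 1. Cxcl1 was 33.4, 17.8 and 9.91 CPM in KO+P cells, above all 3 KO libraries, which came to 1.82 on the log2 scale (standard error 0.586, adjusted p = 0.315, 0.0999 with the replicate block and 0.0089 with DESeq2 and the block). In WT+P cells it was 35.9 and 9.5 CPM, and the second value lay among the WT libraries. Icam2 was 60, 130 and 251 CPM in KO+P and 46 and 178 CPM in WT+P cells, below all untreated libraries of the same genotype, where 18.7% of all tested genes in KO+P vs KO and 21.2% in WT+P vs WT did not overlap. Its log2 fold changes of -1.14 (standard error 0.477, adjusted p = 0.363) and -1.28 (standard error 0.55, adjusted p = 0.486, and 0.811 without WT replicate 1) were not called, but without WT+P replicate 2 that in WT cells was -2.56 and called (adjusted p = 0.0465). In that setting, with 1 WT+P library, 546 of 15414 tested genes were called. The summed endothelial markers were 9150 to 13700 CPM in WT+P and 10200 to 16500 CPM in KO+P cells, against 14600 to 18000 and 15800 to 18000 CPM in untreated WT and KO cells. Their part in the Icam2 values was not tested. Nfkbia was 234, 139 and 105 CPM in KO+P cells, higher than the untreated library of the same number in each of 3 pairs (log2 fold change 0.6, adjusted p = 0.634, 0.107 with the replicate block and 0.0323 with DESeq2 and the block).

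Between untreated KO and WT cells no member was called, nor with the replicate block, while 0.00674% of all tested genes were called without and 0.182% with it. Of the 10 genes, 3 were lower in KO cells without overlap of the groups (Ltb, Cxcl1 and Cxcl12) and none was higher, where 13.2% of all tested genes did not overlap in either direction and 6.5% were lower. Cxcl1 differed by -0.74 on the log2 scale (adjusted p = 0.996), and by -0.86 without the library labelled WT replicate 1. Cxcl12 differed by -0.61 on the log2 scale (standard error 0.214, adjusted p = 0.615), and by -0.72 without the library labelled WT replicate 1 (adjusted p = 0.629). Ltb (chromosome 17, 35413382 to 35415296, plus strand) was 2.71, 8.33 and 3.49 CPM in WT cells, from 59, 223 and 85 counts, and below 1 CPM in each KO library, from 23, 10 and 5 counts. Ltb differed by -3.26 on the log2 scale (standard error 1.03, adjusted p = 0.528), by -3.55 without the library labelled WT replicate 1 (adjusted p = 0.578), and it was called with DESeq2 and the replicate block only (adjusted p = 0.00759). Ltb is among the genes that the study listed as changed in these libraries, so its direction here is no independent evidence. Vcam1 was lower in KO cells in 3 of 3 same-numbered pairs (log2 fold change -0.68, standard error 0.337, adjusted p = 0.874, and 0.314 with the block). It was -0.87 without the library labelled WT replicate 1 (adjusted p = 0.803).

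With propranolol the KO cells likewise held less Cxcl12, Ltb and Vcam1 than WT cells without overlap of the groups, and 16.6% of all tested genes did not overlap. The WT+P libraries of Cxcl12 were 775 and 508 CPM, against at most 393 CPM in KO+P cells. The log2 fold changes were -0.95 for Cxcl12 (standard error 0.236, adjusted p = 0.432), -2.81 for Ltb (adjusted p = 0.74) and -0.87 for Vcam1 (adjusted p = 0.779). In this comparison edgeR called 0% of all tested genes (918 had an unadjusted p under 0.05) and DESeq2 called 61 genes, Cxcl12 among them (adjusted p = 0.0305).

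Among related genes, few were called with rapamycin. The NF-kB factors and regulators (26 listed, all tested) had 1 gene called higher in each genotype, Tnfaip3, whose product restrains NF-kB signalling. Tnfaip3 rose by 1.01 on the log2 scale in KO (standard error 0.219, adjusted p = 0.0372) and by 1.53 in WT cells (standard error 0.238, adjusted p = 0.0109). Birc3, an ubiquitin ligase of the TNF receptor complex, passed with the replicate block only (block adjusted p = 0.0317 in KO and 0.0144 in WT cells). Rela, the most abundant of the list at a mean of 196 TPM, was 273, 261 and 285 CPM in KO and 479, 321 and 347 CPM in KO+R cells and was not called. The Tnfaip3 call was lost in KO cells when any 1 of 5 libraries was left out (KO replicates 1 and 3 and each KO+R library, adjusted p from 0.0686 to 0.166) and without KO+P replicate 2 (0.0558), and in WT cells without WT+R replicate 1 (0.159). The median log2 fold change of this list was 0.08 in KO and 0.18 in WT cells.

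Of 29 other chemokines, 9 were tested. Cxcl16, a membrane-bound chemokine and the most abundant of them, was called higher in both genotypes, from 24.8, 37.6 and 27.5 CPM in KO to 155, 106 and 77.8 CPM in KO+R cells (log2 fold change 1.91, standard error 0.317, adjusted p = 0.0126) and by 1.81 in WT cells (adjusted p = 0.0208). Cx3cl1, or fractalkine, was called higher in WT+R vs WT (log2 fold change 1.11, adjusted p = 0.0388). Of the exonic bases of Cxcl16, 84.814% lie opposite Med11 and Zmynd15, and in these unstranded libraries reads of the genes on the other strand cannot be told apart there. The Cxcl16 call was lost in KO cells without KO replicate 1 (0.066) or KO replicate 3 (0.0634), and in WT cells without WT replicate 1 (0.0808), WT replicate 3 (0.0705) or either WT+R library (0.159 and 0.0885). That of Cx3cl1 was lost without any 1 of the WT or WT+R libraries (adjusted p from 0.0513 to 0.298) and without KO replicate 2, KO replicate 3 or KO+P replicate 2 (0.0572 to 0.0596). Of 14 chemokine receptors and scavengers 7 were tested. Cxcr4, the receptor of CXCL12 and the most abundant, was 805, 295 and 363 CPM in KO and 410, 111 and 172 CPM in KO+R cells. Its log2 fold change of -1.08 was called with the replicate block only (block adjusted p = 0.00458 in KO and 0.00241 in WT cells), and Ccrl2 in KO cells likewise (block adjusted p = 0.0473). Ackr4, a scavenger whose exons overlap another gene, was at 0.504, 0.304 and 0.266 CPM in KO and 4.08, 2.5 and 2.58 CPM in KO+R cells (adjusted p = 0.0371), a call lost without any 1 KO or KO+R library, WT replicate 2 or KO+P replicate 2 (adjusted p from 0.0503 to 0.167). Ackr3, the other receptor of CXCL12, was not called, at 4913, 1923 and 2598 counts in KO and 688, 579 and 964 in KO+R cells. It held 4387, 2259 and 1467 counts in WT and 386 and 390 in WT+R cells. In KO+R vs KO, 5 of the 7 receptors and scavengers had an unadjusted p under 0.05 in edgeR, against 1862 of all 14838 tested genes. Their median log2 fold change there was -1.04, and 3 of the 7 were above 0.

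None of the 21 tested of 26 other adhesion and transmigration genes was called without the block, and their median log2 fold change was -0.03 in KO and 0.06 in WT cells. Cav1 and Pecam1, the most abundant of them with means of 2260 and 1320 TPM, were among those not called. With the block Msn and Emcn were called higher and Cd34 lower in WT+R vs WT (block adjusted p = 0.0466, 0.0176 and 0.00986). The cytokine receptors, led by Tnfrsf1a and Ltbr, the receptor of lymphotoxin beta, had none called of 12 tested. Of 13 tested inflammatory cytokines and NF-kB targets, Nos2, the inducible nitric oxide synthase, fell in both genotypes, with log2 fold changes of -3.18 in KO (adjusted p = 0.00416) and -2.66 in WT cells (adjusted p = 0.0178), opposite to Icam1 and Vcam1. The call in WT cells was lost without either WT+R library (0.189 and 0.115), while Ptgs2 and Csf1, the most abundant, were not called. No gene of these 6 lists was called in KO vs WT, KO+P vs KO or WT+P vs WT, with or without the block. Ptgs2 nonetheless had 37977, 39128 and 7417 counts in KO+P cells, against 1734, 6011 and 3336 in KO cells. It had 22622 and 15549 counts in WT+P cells, against 717, 5041 and 2174 in WT cells. Of the 13 tested genes of its list, 6 had a fold change above 1 in KO+P vs KO and 8 in WT+P vs WT.

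**Figure D4:**
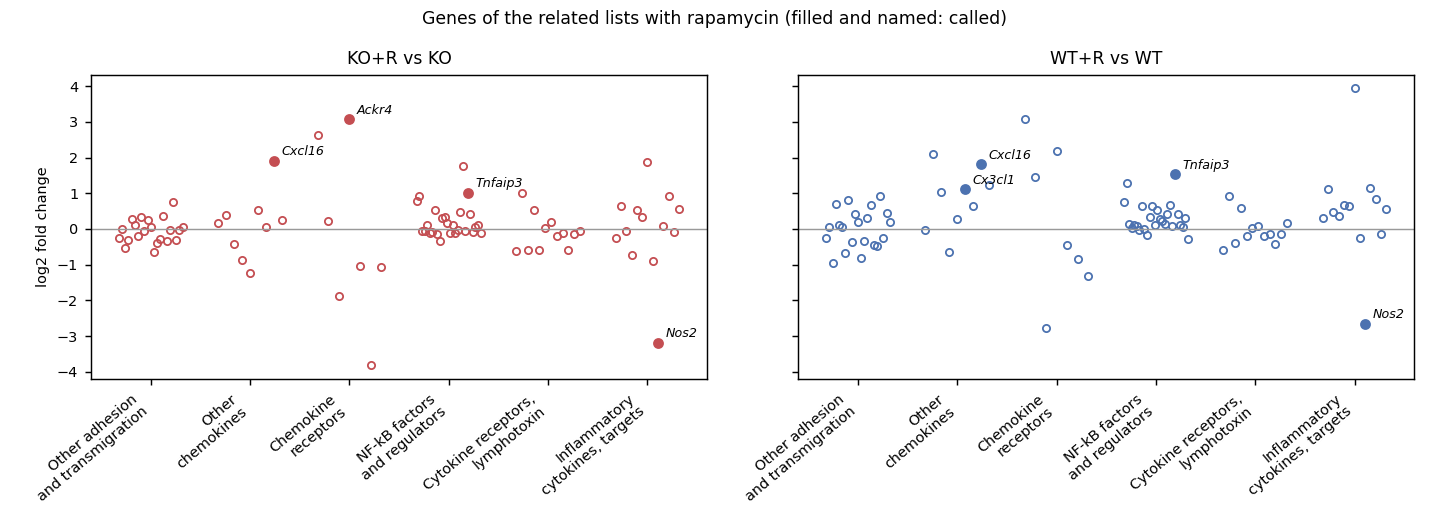
Log2 fold changes with rapamycin of the tested genes in 6 lists of related genes, in KO cells (left) and WT cells (right), in alphabetical order within a list. Filled and named points were called. Cxcl16 and Tnfaip3 were called higher and Nos2 lower in both genotypes, and of the 26 NF-kB factors and regulators only Tnfaip3 was called.

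Markers of other cells moved with rapamycin in part. The 10 mural markers summed to 71.6 to 206 CPM in KO, 271 to 453 CPM in KO+R, 96.7 to 839 CPM in WT and 1460 to 2490 CPM in WT+R cells. Most of each sum was Acta2 and Tagln. Of the 8 tested, 6 had a fold change above 1 with rapamycin in KO and 5 in WT cells. Notch3 went the other way, from 46, 98 and 100 counts in KO to 14, 31 and 42 in KO+R cells. It held 31, 110 and 54 counts in WT and 10 and 43 in WT+R cells. Acta2, a contractile actin, was called higher in WT+R vs WT (log2 fold change 2.74, adjusted p = 0.0469) and was the only 1 of 8 tested to be called, with Tagln added by the block. That call was lost without WT replicate 1, WT replicate 3, either WT+R library, any 1 KO library, KO+P replicate 1 or KO+R replicate 3 (adjusted p from 0.055 to 0.225). Of the pericyte markers, Pdgfrb stood at 1.23 to 6.59 CPM (30 to 148 counts), Rgs5 at most at 1.69 CPM and Kcnj8 at most at 0.187 CPM. Cspg4, another marker of this list, held 10 to 128 counts. Fibroblast markers summed to 14.7 to 156 CPM in KO and 7.47 to 207 CPM in KO+R cells, with Lum and Dpt at 0 throughout, and to 21.3 to 101 CPM in WT and 9.4 to 44.9 CPM in WT+R cells. Microglia and macrophage markers summed to 9.76 to 26.1 CPM in KO and 3.44 to 8.69 CPM in KO+R cells, and Cd68 and Csf1r were called lower there with the block (Cd68 also in WT+R vs WT, block adjusted p = 0.0389). The T and B cell markers summed to 3.72 to 6.62 CPM in KO, 1.47 to 2.22 CPM in KO+R, 4.74 to 14.7 CPM in WT and 0.773 to 1.07 CPM in WT+R cells. Cd79a, a component of the B cell receptor and the most abundant of them, was called lower in WT+R vs WT, from 14, 4.52 and 7.01 to 0.985 and 0.645 CPM (log2 fold change -3.38, adjusted p = 0.0264). That call was lost without WT replicate 1 (0.0714), WT replicate 3 (0.0568) or either WT+R library (0.221 and 0.167). Astrocyte markers stayed at or below 9.3 CPM and neuron and oligodendrocyte markers at or below 30.6 CPM in every library. The part of these cells in the values of Icam1, Vcam1 and Cxcl12 was not tested.

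The genes fell into patterns by group and by replicate number. Entered first, the 6 groups took 92.7% of the variation of Cxcl12 between the 16 libraries (sum of squares of log2 CPM), 85.3% of that of Icam1 and 84.5% of that of Vcam1. In a separate fit with the replicate number entered first, it took 77.6% for Nfkbia, 60% for Sele and 48.8% for Ccl2. The groups differ in size, so the shares of a gene overlap, as the 84.5% and 16.6% of Vcam1 do. Over the 16 libraries, which share groups and replicate numbers, Vcam1 correlated with Cxcl12 at r = 0.889 and with Cxcl1 at 0.821, and Ccl2 with Nfkbia at 0.866. Icam2 ran against Cxcl1 (r = -0.815). After group and replicate number were taken off, Vcam1 and Cxcl1 still correlated at 0.821, whereas Icam1 and Cxcl12 correlated at 0.759 over the 16 libraries and at -0.0466 after that step.

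Likeness was measured over 10045 protein-coding genes whose mean reached 5 CPM. Those most like Icam1 over the 16 libraries were Nuak2 (r = 0.96), Eng (0.954), a co-receptor of BMP and TGF-beta ligands, and Cxcl16 (0.946). The genes most like Vcam1 were Tnfaip3 (0.953), Ccn2 (0.938) and Pcgf5 (0.928), and those most like Cxcl12 were Id3 (0.946), Skil (0.944) and Fxr1 (0.942). Cxcl1 was nearest to Gadd45b (0.935), Syt17 and Twnk, and Ccl2 to Morf4l1 (0.925), Ube2d2a and Ripk2. Icam2 was nearest to Hspa12b (0.977), Egfl8 and Jup. For Nfkbia the nearest were Pias4 (0.957), Yif1b and Spg21, and for Ltb Prnd (0.928), Tspan6 and Tceal9. The scarce selectins were nearest to Arhgdib (0.92), Fat1 and Zfp365 for Sele and to Hes1 (0.858), Psmd3 and Hspa8 for Selp. These correlations are descriptions of libraries that share groups.

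Vcam1 and Cxcl12 each had more than 1 transcript with a sizeable share of the counts. Of the Vcam1 counts, 50.3% were assigned to the transcript Vcam1-201 and 48.8% to Vcam1-203. The share of Vcam1-203 was 46.7 to 63.3% in the libraries numbered 1 and 32.8 to 54.9% in the others, so that the ranges overlapped. Cxcl12 counts were split over Cxcl12-201 (43%), Cxcl12-203 (36.3%) and Cxcl12-202 (20.2%), and the share of Cxcl12-203 was 38.1 to 58.8% in the libraries numbered 1 and 21.2 to 39.4% in the others. Smaller shares were those of Selp-202 (10.7% of the Selp counts), Ltb-203 (8.19% of the Ltb counts) and Cxcl1-202 (6.46% of the Cxcl1 counts). Ltb-201 held 90% of the Ltb counts over all libraries but 0% in KO replicate 3, where Ltb had 5 counts. Its share was 0% also in KO+P replicates 2 and 3, with 3 and 11 counts. The gene sums used above do not depend on how the counts were divided among transcripts of a gene.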

How the data were processed

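RNA-seq of poly(A) RNA was deposited for 16 mBMEC libraries, unstranded and paired-end. For each library the authors deposited estimated counts per transcript, TPM values and effective lengths in the format of Salmon (version 1.5.2 in the submitters' processing notes, build GRCm39). The transcript index is not given in the sources used here, whereas the methods of the study name STAR and HTSeq. The deposited estimated counts were not normalized between libraries. The deposited TPM values were summed over transcripts for levels compared between genes, and the effective lengths served an alternative only.

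Of 140789 transcripts, 139544 (99.12%), with 99.43 to 99.61% of the counts, were named in GENCODE vM39. Their counts were summed per gene and rounded. Depth was 18.83 to 26.2 M counts per library. With edgeR 4.0.16, genes were filtered with filterByExpr, scaled with TMM and fitted in a quasi-likelihood model of the 6 groups (10 residual degrees of freedom). P-values were adjusted with the Benjamini-Hochberg method over all 14838 tested genes. Genes were called at an adjusted p under 0.05 and a fold change above 1.5, the study's thresholds, and interactions at the adjusted p alone. Variation between cultures (a biological coefficient of variation of 32.3%, or 19% once the replicate number was a block) limited precision. Alternatives were DESeq2 1.42.0 and the settings named in the closing section, and scripts were tested on simulated data. Log2 CPM for correlations used a prior count of 2. Intervals are 95% intervals of the model.

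Deviations from the group means of libraries with the same replicate number correlated at a median of 0.52 over 36 pairs (0.0323 to 0.693). The median was -0.23 over 70 pairs with different numbers. Deviations cancel out within a group, which by itself pushes that median down. The same-numbered pairs of the groups compared reached 0.189 or more. WT replicate 3 was paired only weakly, at 0.189 with KO replicate 3, 0.147 with KO+R replicate 3 and 0.0323 with KO+P replicate 3. The numbers were taken to pair the libraries, which rests on the values and not on the labels.

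The members and gene lists were chosen with earlier results of these data known. Fold changes and tests are given for each member with an unadjusted p under 0.05 in either model and for other members where a level called for them. From each list every called gene (at most 4 per comparison, by p) and the 2 most abundant by TPM are named. For likeness, the 3 protein-coding genes with the highest Pearson r are named.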

Additional observations from a re-analysis of the deposited data

How the results depend on the processing

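Counts of called members changed with the model. The replicate block in edgeR gave 4 in KO+R vs KO (Vcam1, Cxcl1, Icam1 and Cxcl12), as did DESeq2 without and with the block, against 2. DESeq2 with the block gave 1 in KO vs WT (Ltb) and 2 in KO+P vs KO (Nfkbia and Cxcl1), against 0 each, and DESeq2 without and with the block gave 1 in KO+P vs WT+P (Cxcl12), against 0. DESeq2 without and with the block gave 4 in WT+R vs WT (Cxcl1 added), against 3. Of all 14838 tested genes, DESeq2 with the block called 1127 in KO+R vs KO and 979 in WT+R vs WT. In edgeR the block moved no other count of called members. Fitting only the KO and KO+R libraries kept the count at 2 in KO+R vs KO, with Icam1 in place of Vcam1. Fitting the compared groups only gave 0 in WT+R vs WT, against 3, and the libraries numbered 2 and 3 alone, a setting chosen after seeing the data, gave 1 in KO+R vs KO (Cxcl12) and 0 in WT+R vs WT. Leaving out 1 library gave 1 to 3 in KO+R vs KO, 0 to 3 in WT+R vs WT and 0 to 1 in WT+P vs WT (1, Icam2, without WT+P replicate 2), and 0 in the other comparisons. It was 1 in KO+R vs KO without KO replicate 1, KO replicate 3 or KO+R replicate 1, and 0 in WT+R vs WT without WT replicate 1, WT replicate 3 or either WT+R library. Where a WT+P or WT+R library was left out, the lone one was assumed to vary like the other groups. The log2 fold change of Nfkbia in KO+R vs WT+R was -0.6 and ranged from -1.125 to 0.1043 when 1 library was left out, changing sign without WT+R replicate 1. Over all 10 members, 7 comparisons of groups and 24 settings (1679 values), 1566 kept their direction and their side of the threshold, 23 passed it only under the alternative, 24 no longer passed it and 66 changed sign. The sign changes fell on 25 of 70 pairs of gene and comparison, 0 of which had been called. Among values of other listed genes called, 178 kept their call, 62 lost it and 0 changed sign. The cause of these changes was not tested. DESeq2's size factors, no filter on low counts and an offset for effective length left each count of members within 1.5 times that reported. Counts of all called genes moved by more: 224 in KO+R vs KO became 471 with DESeq2, 739 with the block and 39 with the libraries numbered 2 and 3, and 207 in WT+R vs WT became 542, 677 and 5, and 8 with the compared groups only. Called genes in KO vs WT went from 1 to 65 with DESeq2, 27 with the block and 397 with both, in KO+P vs KO from 1 to 164, 21 and 934, and to 332 without KO+P replicate 3, in WT+P vs WT from 1 to 118, 12 and 154, and to 546 without WT+P replicate 2, in KO+P vs WT+P from 0 to 61, 13 and 260, and in KO+R vs WT+R from 0 to 77, 14 and 301. Without any filter on low counts these 5 comparisons had 5, 52, 36, 2 and 7. Leaving out 1 library gave 51 to 247 called genes in KO+R vs KO and 25 to 258 in WT+R vs WT. Sele, Ltb and Selp had the lowest counts.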
